A study of Mus musculus with 2 samples.

Results

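The genes of the proteasome were measured by RNA sequencing in regulatory T (Treg) cells, a class of CD4 T cells that express Foxp3 and hold immune responses in check. The members are 47 genes, chosen by name from a list of the subunits of the complex with its activators and assembly factors, among 34745 gene rows in each table. Each of the 47 was present on 1 row. They fall into 7 subcomplexes. The alpha ring has 7 members (Psma), the beta ring 7 (Psmb1 to Psmb7) and the immunoproteasome 3 alternative beta subunits (Psmb8, Psmb9 and Psmb10). The base has 10 (Psmc, Psmd1, Psmd2, Psmd4 and Adrm1), the lid 8 (the other Psmd subunits and Shfm1), the activators 4 (Psme) and the assembly factors 8 (Pomp, Psmg, Psmd5, Psmd9 and Psmd10). Psmd14, the gene deleted in the study, belongs to the lid but was kept out of the members.

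The proteasome is the protease that degrades proteins marked with ubiquitin. Its 20S core is a barrel of alpha rings, which form the gate, and beta rings, which hold the active sites. The 19S regulatory particle at its end has a base, whose ATPases unfold substrates, and a lid, in which the POH1 protein cuts the ubiquitin chain off. Interferon induces alternative catalytic subunits and the PA28 activator, which shape the peptides presented on MHC class I, and cells with too little proteasome activity are known to raise transcription of the subunit genes through the factor NRF1.

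There was 1 library of each genotype. The knockout library came from splenic Treg cells of poh1fl/fl Foxp3Cre+ mice, in which Cre is made in Foxp3-expressing cells and poh1, that is Psmd14, is deleted there. The wild-type library came from the same cells of poh1+/+ Foxp3Cre+ mice, so both carry the Foxp3Cre allele. All were C57BL/6 mice aged 2 weeks, and the cells were sorted as CD4+ cells with the yellow fluorescent protein (YFP) that reports Foxp3. No source used here gives how many mice were pooled for a library, or which exons the floxed allele loses. Without replicates no difference can be set against the spread between mice, and no p-value is given. Ranges in parentheses after a fold or ratio are exact 95% intervals from the counts of the libraries and cover counting error only. Whether more RNA per cell or a different mix of cells gives a difference cannot be told apart in bulk libraries.

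Total gene counts were 14544212 in the knockout library and 18124611 in the wild-type library. Psmd14 had 463 counts (31.8 CPM) in the knockout library and 1619 counts (89.4 CPM) in the wild-type library, and was 2.81-fold lower (2.53 to 3.12) in the knockout library, as its label has it. The Treg markers Foxp3, Il2ra, Ctla4, Ikzf2, Tnfrsf18 and Ikzf4 were all present and summed to 4129 CPM in the knockout and 3828 CPM in the wild-type library. They went in both directions. Foxp3 was 1.60-fold higher (1.56 to 1.64), Il2ra 1.55-fold higher (1.52 to 1.58) and Ikzf4 1.92-fold higher (1.80 to 2.05), while Ctla4 was 1.59-fold lower (1.56 to 1.63) and Ikzf2 1.57-fold lower (1.53 to 1.61). Tnfrsf18 had a ratio of 0.987 (0.930 to 1.05). A set of 6 general T cell markers summed to 2911 CPM in the knockout and 2718 CPM in the wild-type library. These too went in both directions, with a median log2 ratio (knockout over wild type) of -0.06. Of the 6, 2 had an interval wholly above a ratio of 1 and 2 wholly below. Cd2 was 1.72-fold higher (1.68 to 1.77), while Cd3g was 1.27-fold lower (1.22 to 1.32) and Lck 1.16-fold lower (1.12 to 1.19). Markers of other cells were low but differed. The 7 B cell markers summed to 38.5 CPM in the knockout and 144 CPM in the wild-type library, 6 erythroid markers to 17.5 CPM in the knockout and 64.7 CPM in the wild-type library, and Cd8a with Cd8b1 to 47.4 CPM in the knockout and 18.8 CPM in the wild-type library. The 9 myeloid and dendritic cell markers summed to 159.6 CPM in the knockout and 124 CPM in the wild-type library. The higher sum came mostly from Csf1r, at 92.1 CPM in the knockout and 52.9 CPM in the wild-type library. Of the 8 that reached 1 CPM in either library, 4 had an interval wholly below a ratio of 1 and 2 wholly above. The shares among all such genes were 35.2% below and 34.3% above. The median log2 ratio of the 8 markers was -0.61. S100a8, Clec9a and Cd209a were at 0 counts in the knockout library. No marker of the other lists was at 0 in either library. The part of these cells in the proteasome values was not tested.

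Most proteasome genes were moderately higher in the knockout library. Together the 47 genes took 0.609% of all counts in the knockout library (0.605% to 0.613%) and 0.423% in the wild-type library (0.420% to 0.426%). Their median log2 ratio (knockout over wild type) was 0.51, a 1.43-fold higher level, beside -0.01 over all 13464 genes at 1 CPM (a count scaled to the library total) or more in at least 1 library. All 47 passed that limit in both libraries. A gene was called higher or lower where its counting interval lay wholly beyond 1.5-fold. Of the 47, 10 were called higher and 0 lower, or 37 neither, beside 9.58% of all tested genes called higher and 12.3% called lower. Under the looser rule that the interval lies wholly on 1 side of a ratio of 1, 39 were higher, 2 were lower and 6 were neither. The same rule took in 34.3% of all tested genes as higher and 35.2% as lower. Median FPKM (fragments scaled to gene length and library total) of the members was 35.5 in the knockout and 21.7 in the wild-type library. Over all tested genes it was 5.08 in the knockout and 5.19 in the wild-type library. Higher counts narrow the interval, so these shares are not matched for depth.

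The subcomplexes had different medians. The median log2 ratio was 0.91 for the immunoproteasome subunits, 0.65 for the base, 0.63 for the alpha ring and 0.51 for the beta ring. It was 0.37 for the lid, 0.26 for the activators and 0.16 for the assembly factors. The 32 constitutive subunits of core, base and lid had a median of 0.59. Of these 32, 29 had an interval wholly above a ratio of 1 and 0 wholly below, beside 34.3% and 35.2% of all tested genes. Whether the medians differ between subcomplexes was not tested, and each subcomplex holds between 3 and 10 genes.

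**Figure D1:**
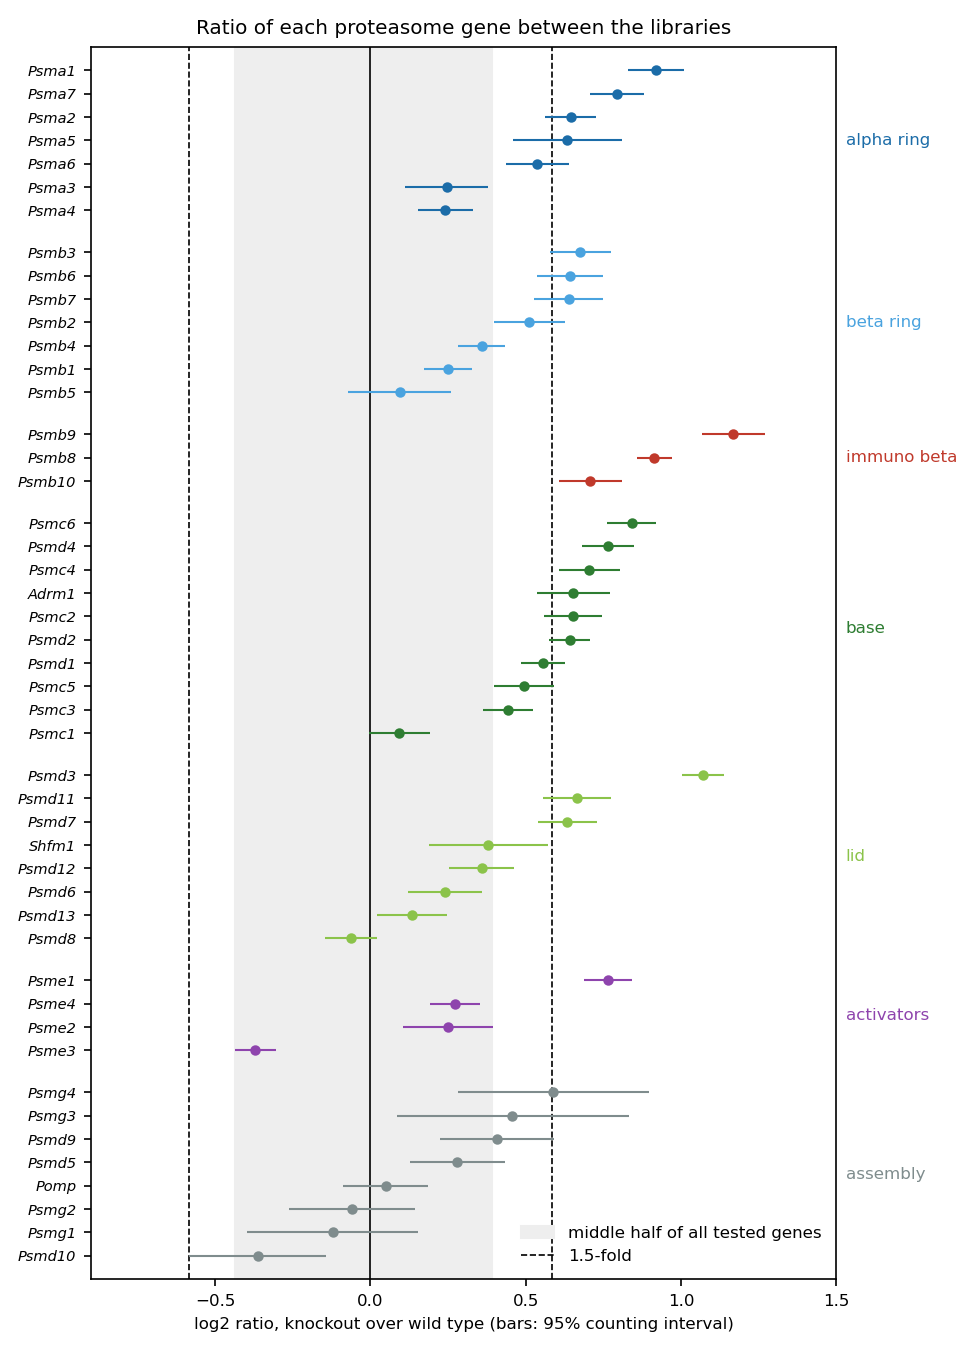
Log2 ratio of the knockout over the wild-type library for each of the 47 genes, grouped by subcomplex. Points are ratios, bars are 95% counting intervals, the grey band spans the quartiles of all tested genes (-0.44 to 0.39) and dashed lines mark 1.5-fold. Every alpha ring, immunoproteasome and base gene lies to the right of 0, while Psme3 and Psmd10 lie to its left with intervals that do not reach it.

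Sequence around the RefSeq start site is shown for members chosen for their contrast in ratio. RefSeq (GRCm38.p6, the mm10 build) gave a window from 250 bases before to 50 after the start site for 40 of the 47, all but Psmb1, Psmb2, Psmb7, Psmc3, Psmd3, Psmd7 and Psmg2. Shown are Psmb9 and Psmb8, the immunoproteasome genes with the highest ratios, Psmb5, the constitutive counterpart of Psmb8, which hardly differed, Psma1, the alpha ring gene with the highest ratio, and Psme3, the lowest of all members. Capitals mark matches on either strand to the CCAAT box (CCAAT), the antioxidant response element (TGACNNNGC), the interferon-stimulated response element (2 GAAA half-sites with 2 bases between them) and the gamma-activated site (TTCNNNGAA). The windows of Psmb8 and Psmb9 lie wholly inside the GENCODE M21 gene spans, whose starts are further upstream.
Psmb9, chr17:34187281-34187580, minus strand: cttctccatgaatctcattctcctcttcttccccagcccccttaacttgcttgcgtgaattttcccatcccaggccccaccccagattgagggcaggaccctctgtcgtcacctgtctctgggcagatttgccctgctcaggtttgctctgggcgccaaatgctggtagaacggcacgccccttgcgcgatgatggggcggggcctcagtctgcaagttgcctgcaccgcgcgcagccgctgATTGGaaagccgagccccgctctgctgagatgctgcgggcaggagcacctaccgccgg
Psmb8, chr17:34197945-34198244, plus strand: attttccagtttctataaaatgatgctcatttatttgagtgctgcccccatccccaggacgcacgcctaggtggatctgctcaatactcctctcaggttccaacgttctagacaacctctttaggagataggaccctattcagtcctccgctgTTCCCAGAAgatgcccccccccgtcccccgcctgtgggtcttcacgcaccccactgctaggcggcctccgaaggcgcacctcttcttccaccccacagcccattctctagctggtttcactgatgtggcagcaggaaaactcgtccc
Psmb5, chr14:54617946-54618245, minus strand: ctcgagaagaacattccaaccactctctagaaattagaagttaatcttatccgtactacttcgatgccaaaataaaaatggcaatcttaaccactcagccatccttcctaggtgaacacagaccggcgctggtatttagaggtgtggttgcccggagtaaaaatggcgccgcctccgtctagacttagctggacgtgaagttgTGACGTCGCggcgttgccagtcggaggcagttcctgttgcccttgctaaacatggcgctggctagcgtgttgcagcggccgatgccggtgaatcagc
Psma1, chr7:114276067-114276366, minus strand: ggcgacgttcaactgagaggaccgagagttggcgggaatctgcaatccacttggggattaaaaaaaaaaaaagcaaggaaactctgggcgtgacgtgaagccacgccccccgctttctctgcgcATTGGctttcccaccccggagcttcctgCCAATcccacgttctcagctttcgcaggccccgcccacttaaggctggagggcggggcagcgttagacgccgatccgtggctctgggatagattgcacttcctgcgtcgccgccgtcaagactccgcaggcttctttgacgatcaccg
Psme3, chr11:101315963-101316262, plus strand: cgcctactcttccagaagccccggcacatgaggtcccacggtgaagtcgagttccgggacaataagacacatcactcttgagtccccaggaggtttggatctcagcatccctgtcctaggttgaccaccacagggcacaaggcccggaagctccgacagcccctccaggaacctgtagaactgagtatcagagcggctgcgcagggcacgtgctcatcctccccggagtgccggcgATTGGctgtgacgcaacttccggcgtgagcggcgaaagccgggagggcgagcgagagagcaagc

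The windows of Psmb9 and Psme3 each held 1 CCAAT match. Psma1 held 2 CCAAT matches, Psmb8 held 1 match to the gamma-activated site, and Psmb5 held 1 match to the antioxidant response element, the motif bound by NRF1 and NRF2. Over the members with a window, the antioxidant response element was matched in 8 of 40, or 20%, beside 14.0% of 27025 genes with a window. The CCAAT box was matched in 13 members (32.5%), beside 41.1% of all genes. The interferon-stimulated response element was matched in 5 members (12.5%), beside 3.99% of all genes. These were Psmb3, Psmd4, Psmd9, Psme1 and Psmg4. The gamma-activated site was matched in Psmb8, Psmd2 and Psmg1 (7.5%), beside 9.55% of all genes. The median log2 ratio of members with and without a match was 0.39 and 0.55 for the antioxidant response element, 0.65 and 0.41 for the CCAAT box, 0.68 and 0.46 for the interferon-stimulated response element, and 0.64 and 0.49 for the gamma-activated site. These differences were not tested. A match is a string of letters in the window and not a measured binding site.

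All 7 alpha ring genes, whose products form the gated outer rings of the core, were at a higher level in the knockout library. Their intervals lay above a ratio of 1, beside 34.3% of all tested genes. Psma1 (chromosome 7, 114264606 to 114276118 on mm10) had 2576 counts (177 CPM) in the knockout library and 1696 counts (93.6 CPM) in the wild-type library, 1.89-fold higher (1.78 to 2.01). Psma7 (chromosome 2, 180036374 to 180042433) had 2542 counts (175 CPM) in the knockout library and 1826 counts (101 CPM) in the wild-type library, 1.73-fold higher (1.63 to 1.84). These 2 were the alpha ring genes called higher, beside 9.58% of all tested genes. Psma2 was at 189 CPM in the knockout and 121 CPM in the wild-type library, 1.56-fold higher (1.48 to 1.65). Psma5 was at 41.8 CPM in the knockout and 26.9 CPM in the wild-type library, 1.55-fold higher (1.38 to 1.75), and Psma6 at 118 CPM in the knockout and 81.6 CPM in the wild-type library, 1.45-fold higher (1.35 to 1.56). The smallest differences were those of Psma3, at 61.0 CPM in the knockout and 51.5 CPM in the wild-type library, or 1.19-fold higher (1.08 to 1.30), and Psma4, at 141 CPM in the knockout and 119 CPM in the wild-type library, or 1.18-fold higher (1.11 to 1.26). The intervals of Psma3 and Psma4 lay wholly below those of the other 5. Those 5 differed among themselves too, the interval of Psma1 lying wholly above those of Psma2 and Psma6. Psma3, Psma4 and Psma5 have near-identical pseudogenes in the annotation, so their levels are uncertain. With the rows of copies added, Psma5 stood at 1.59 (1.44 to 1.76) and Psma3 at 1.18 (1.08 to 1.30), and the copy of Psma4 was not matched to a row.

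The beta ring genes, among them the constitutive catalytic subunits, were higher in 6 of 7 by an interval above a ratio of 1. The share of all tested genes was 34.3%. For 0 of the 7 the interval lay wholly beyond 1.5-fold, beside 9.58% of all tested genes called higher and 12.3% called lower. Psmb3, a structural subunit, was highest by ratio, with 1976 counts (136 CPM) in the knockout library and 1540 counts (85.0 CPM) in the wild-type library, 1.60-fold higher (1.49 to 1.71). Psmb6, the caspase-like subunit, was at 114 CPM in the knockout and 72.8 CPM in the wild-type library, 1.56-fold higher (1.45 to 1.68), and Psmb7, the trypsin-like subunit, at 103 CPM in the knockout and 66.3 CPM in the wild-type library, 1.56-fold higher (1.44 to 1.68). Psmb5, the chymotrypsin-like subunit and the target of bortezomib, had 551 counts (37.9 CPM) in the knockout library and 643 counts (35.5 CPM) in the wild-type library, a ratio of 1.07 (0.951 to 1.20), which was not distinguishable from no difference at this depth. Psmb5 and Psmb3 also have near-identical pseudogenes, and exons of Psmb5 overlap Mir686 over 12.1% and those of Psmb7 overlap Nek6 over 11.8% of their length. The catalytic subunits of 1 ring thus differed in ratio, with the intervals of Psmb6 and Psmb7 lying wholly above that of Psmb5. The structural subunits Psmb2, Psmb4 and Psmb1 were 1.43-fold (1.32 to 1.54), 1.28-fold (1.22 to 1.35) and 1.19-fold (1.13 to 1.254) higher. Psmb1 and Psmb4 were the most abundant beta ring genes by count, Psmb4 at 193 CPM in the knockout and 151 CPM in the wild-type library and Psmb1 at 182 CPM in the knockout and 153 CPM in the wild-type library.

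**Figure D2:**
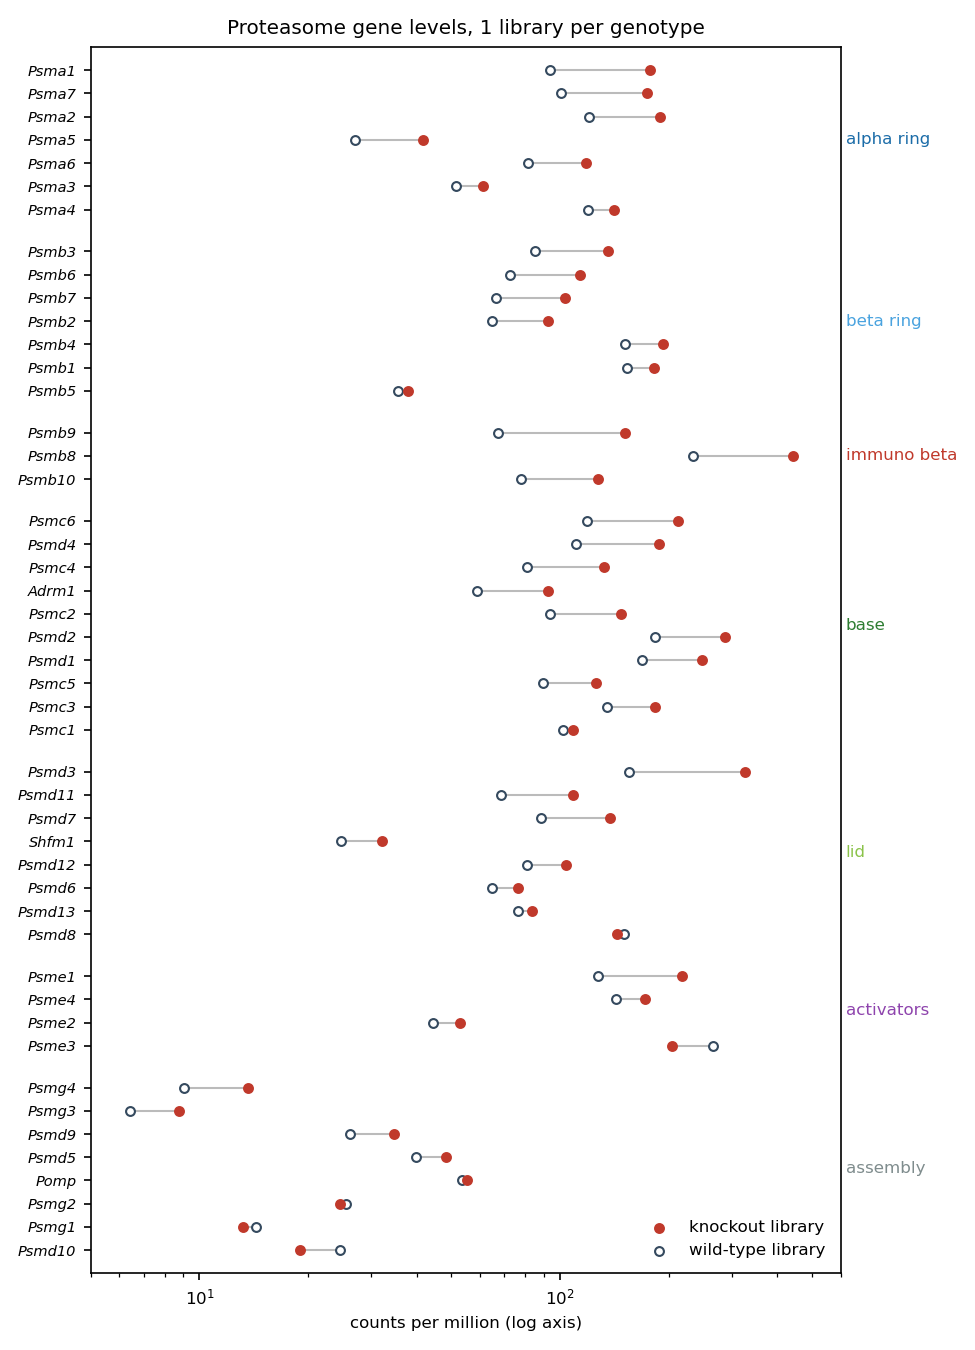
Level of each of the 47 genes in CPM on a log axis, in the knockout library (filled points) and the wild-type library (open points), 1 library each. The filled point lies to the right of the open one for most subunits of the core, base and lid, and to its left for Psmd8, Psme3, Psmg1, Psmg2 and Psmd10.

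The immunoproteasome subunits, which replace the catalytic beta subunits in lymphoid and interferon-exposed cells, were the only subcomplex in which all members were called higher. The share called higher was 9.58% over all tested genes. Psmb9 (chromosome 17, 34181987 to 34187764) had 2200 counts (151 CPM) in the knockout library and 1219 counts (67.3 CPM) in the wild-type library, 2.25-fold higher (2.09 to 2.41), the highest ratio of the 47. Psmb8 (chromosome 17, 34197721 to 34201454) had 6422 counts (441 CPM) in the knockout library and 4245 counts (234 CPM) in the wild-type library, 1.88-fold higher (1.81 to 1.96), and was the most abundant member by count in the knockout library. By FPKM in that library, Psma2 was the highest member, at 200 beside 115 for Psmb8. Psmb10 (chromosome 8, 105935735 to 105938444) had 1858 counts (128 CPM) in the knockout library and 1416 counts (78.1 CPM) in the wild-type library, 1.63-fold higher (1.52 to 1.75). Psmb8 and Psmb9 lie beside the peptide transporter genes Tap1 and Tap2 in the MHC region. Exons of Psmb9 overlap those of Tap1 over 5.79% of their length, and exons of Psmb8 overlap those of the gene model Gm20496 over 14.7%. The library kit does not mark strand, so these counts are uncertain by an amount that was not measured. Tap1 itself had 9782 counts in the knockout library and 5679 in the wild-type library. Of the 3 immunosubunit genes, only Psmb10 had no such overlap.

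Each immunosubunit takes the place of 1 constitutive subunit, so their relative levels were compared per length, on the deposited FPKM scale. For the chymotrypsin-like pair, Psmb8 was at 115 FPKM in the knockout library and 60.9 FPKM in the wild-type library, and Psmb5 was at 43.5 FPKM in the knockout library and 40.7 FPKM in the wild-type library. Psmb8 thus made up 72.5% of the pair in the knockout library and 59.9% in the wild-type library. The ratio of Psmb8 to Psmb5 was 1.77-fold higher in the knockout library (1.56 to 1.99), a comparison in which gene length and library scaling cancel. Psmb9, at 24.0 FPKM in the knockout library and 10.7 FPKM in the wild-type library, made up 39.6% of its pair with Psmb6 in the knockout library and 31.3% in the wild-type library. The ratio of Psmb9 to Psmb6 was 1.44-fold higher (1.30 to 1.59). The third pair did not differ beyond counting error. Psmb10, at 101 FPKM in the knockout library and 61.5 FPKM in the wild-type library, made up 77.6% of its pair with Psmb7 in the knockout library and 76.8% in the wild-type library, and the ratio of Psmb10 to Psmb7 was 1.05 times that of the wild-type library (0.946 to 1.16). The shares themselves depend on the gene lengths used, as the plot of the pairs under other lengths shows, while their direction between libraries does not. Psmb5 also has a near-identical pseudogene, and exons of Psmb8, Psmb9, Psmb5 and Psmb7 overlap those of other genes. The shares and ratios of these pairs are uncertain for these reasons too, by an amount that was not measured.

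**Figure D3:**
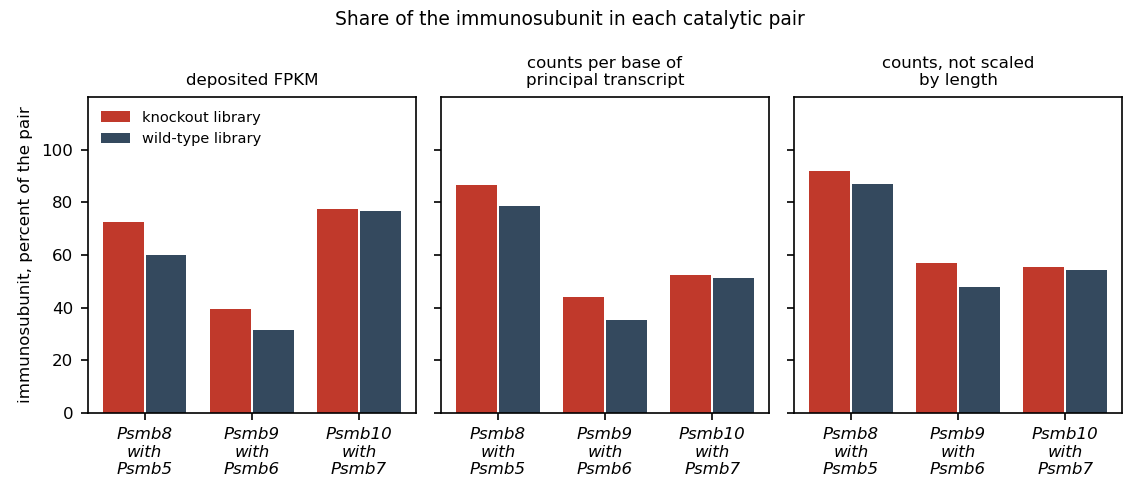
Share of the immunosubunit in the summed level of each catalytic pair, in percent, in the knockout library (red, left bar) and the wild-type library (dark, right bar), 1 library each. Panels use the deposited FPKM, counts per base of the principal transcript and counts without length scaling. In each panel the red bar is higher for Psmb8 with Psmb5 and Psmb9 with Psmb6, while the bars of Psmb10 with Psmb7 are close to equal.

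Among the 10 genes of the base, 9 had intervals above a ratio of 1, beside 34.3% of all tested genes. Of the 10, 3 were called higher, beside 9.58% of all tested genes. Psmc6, an ATPase of the unfolding ring (chromosome 14, 45329788 to 45349705), had 3096 counts (213 CPM) in the knockout library and 2153 counts (119 CPM) in the wild-type library, 1.79-fold higher (1.69 to 1.89). Psmd4, which encodes a ubiquitin receptor (chromosome 3, 95032694 to 95042614), had 2732 counts (188 CPM) in the knockout library and 2004 counts (111 CPM) in the wild-type library, 1.70-fold higher (1.60 to 1.80). The ATPase gene Psmc4 (chromosome 7, 28041707 to 28050101) had 1925 counts (132 CPM) in the knockout library and 1471 counts (81.2 CPM) in the wild-type library, 1.63-fold higher (1.52 to 1.75). The other ATPase genes were spread over a wide range, Psmc2 being 1.57-fold (1.47 to 1.68), Psmc5 1.41-fold (1.32 to 1.51) and Psmc3 1.36-fold (1.29 to 1.44) higher. Psmc1, an ATPase of the same ring, had 1581 counts (109 CPM) in the knockout library and 1846 counts (102 CPM) in the wild-type library, a ratio of 1.07 (0.997 to 1.14), so it was the single base gene not separated from no difference. Psmc1 and Psmd2 have near-identical pseudogenes, and Adrm1 has the protein-coding copy Gm9774, so these levels are uncertain. The scaffold genes Psmd2 and Psmd1 were the most abundant of the base by count, which is not scaled to length. By FPKM they ranked 4 and 7 of the 10 in both libraries. Psmd2 was at 286 CPM in the knockout and 184 CPM in the wild-type library, 1.56-fold higher (1.49 to 1.63), and Psmd1 at 248 CPM in the knockout and 168 CPM in the wild-type library, 1.47-fold higher (1.40 to 1.54). Adrm1, which encodes a further ubiquitin receptor of the base and the docking site of the deubiquitinase UCHL5, was at 92.7 CPM in the knockout and 58.9 CPM in the wild-type library, 1.57-fold higher (1.45 to 1.71).

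In the lid, where POH1 itself resides, the ratios were the most uneven of the constitutive subcomplexes, from -0.06 to 1.07 on the log2 scale. Psmd3, a scaffold subunit (chromosome 11, 98682554 to 98695979), had 4750 counts (327 CPM) in the knockout library and 2816 counts (155 CPM) in the wild-type library, 2.10-fold higher (2.00 to 2.20), the second highest ratio of the 47. It was the single lid gene called higher, beside 9.58% of all tested genes. Psmd11, at 109 CPM in the knockout and 68.7 CPM in the wild-type library, was 1.59-fold higher (1.47 to 1.71), and Psmd7, whose product is the direct partner of POH1 in the lid, was 1.55-fold higher (1.45 to 1.66), at 137 CPM in the knockout and 88.5 CPM in the wild-type library. Shfm1 (now Sem1), the gene of a small acidic subunit, was at 32.1 CPM in the knockout and 24.7 CPM in the wild-type library, 1.30-fold higher (1.14 to 1.48). The scaffold genes Psmd12, Psmd6 and Psmd13 were 1.28-fold (1.19 to 1.38), 1.18-fold (1.09 to 1.28) and 1.10-fold (1.01 to 1.19) higher. Psmd8, a further scaffold subunit, had 2094 counts (144 CPM) in the knockout library and 2724 counts (150.3 CPM) in the wild-type library, a ratio of 0.957 (0.904 to 1.01), which was not distinguishable from no difference. The lid members thus ran from no measurable difference to about the same size as the immunosubunits, beside the 2.81-fold lower (2.53 to 3.12) level of Psmd14. Exons of Psmd13 overlap those of Sirt3 over 10.1% of their length. Psmd11 has near-identical copies, so its level is uncertain, and with the row of the copy A730017L22Rik added it stood at 1.42 (1.33 to 1.52).

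The activators, rings or caps that open the core without the 19S particle, went in both directions. Psme1 and Psme2 encode the PA28 alpha and beta subunits, which form 1 mixed ring, and lie next to each other on chromosome 14. Psme1 (chromosome 14, 55578123 to 55581529) had 3161 counts (217 CPM) in the knockout library and 2316 counts (128 CPM) in the wild-type library, 1.70-fold higher (1.61 to 1.79), and was called higher. Psme2 (chromosome 14, 55587441 to 55591113) had 769 counts (52.9 CPM) in the knockout library and 806 counts (44.5 CPM) in the wild-type library, 1.19-fold higher (1.08 to 1.31). These partners differed in ratio beyond counting error. Psme2 is nearly identical to Psme2b, over 794 bases with 99.4% identity, and Psme2b took 1782 counts in the knockout library and 1698 in the wild-type library, so the level of Psme2 is uncertain. With both rows summed, the ratio was 1.27 (1.20 to 1.34), still below that of Psme1. Psme4, which encodes the nuclear activator PA200, was at 172 CPM in the knockout and 143 CPM in the wild-type library, 1.21-fold higher (1.14 to 1.28). Psme3, which encodes the nuclear PA28 gamma ring, had 2983 counts (205 CPM) in the knockout library and 4804 counts (265 CPM) in the wild-type library, 1.29-fold lower (1.24 to 1.35). It was the most abundant activator by count in the wild-type library and 1 of the 2 members of all 47 with an interval wholly below a ratio of 1. The median of the activators turned to -0.05 where only Psme3 and Psme4, which have no copy and no overlapping gene, were kept.

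The assembly factors, which are chaperones that guide subunits together and are not in the finished particle, were close to level as a group. 0 of 8 were called in either direction, beside 9.58% of all tested genes called higher and 12.3% called lower. Of the 8, 4 had an interval above a ratio of 1 and 1 below, beside 34.3% and 35.2% of all tested genes. Few counts widen the interval, as for Psmg3, with 128 counts in the knockout library and 116 in the wild-type library. Pomp, the maturation factor of the beta ring, had 804 counts (55.3 CPM) in the knockout library and 968 counts (53.4 CPM) in the wild-type library, a ratio of 1.03 (0.941 to 1.14). Psmg1 and Psmg2, whose products pair as a chaperone of the alpha ring, had ratios of 0.920 (0.759 to 1.11) and 0.960 (0.833 to 1.10). Psmg3 and Psmg4, which form a second such pair, were 1.37-fold (1.06 to 1.78) and 1.504-fold (1.22 to 1.86) higher, from few reads. Psmg4 had 198 counts in the knockout library and 164 in the wild-type library. The base chaperone genes were split. Psmd9, at 34.7 CPM in the knockout and 26.2 CPM in the wild-type library, was 1.33-fold higher (1.17 to 1.51), and Psmd5, at 48.4 CPM in the knockout and 39.8 CPM in the wild-type library, was 1.21-fold higher (1.09 to 1.35). Psmd10, the gene of gankyrin (chromosome X, 140948429 to 140956728), had 277 counts (19.0 CPM) in the knockout library and 444 counts (24.5 CPM) in the wild-type library, 1.29-fold lower (1.11 to 1.501). Exons of Psmd9 overlap those of the gene model Gm26745 over 25.5% of their length. The median of the group was -0.01 over the 6 assembly factors without a copy or an overlapping gene.

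On the deposited FPKM scale, levels varied widely between subunits of the same subcomplex. In the alpha ring, Psma2 was at 200.004 FPKM in the knockout library and 128 FPKM in the wild-type library, while Psma3 was at 9.76 FPKM in the knockout library and 8.23 FPKM in the wild-type library, a 20.5-fold span in the knockout and a 15.5-fold span in the wild-type library. In the base, Psmc6 was at 136 FPKM in the knockout library and 76.0 FPKM in the wild-type library and Adrm1 at 7.82 FPKM in the knockout library and 4.97 FPKM in the wild-type library, spans of 17.4 and 15.3. The gene length behind the deposited FPKM, worked out from count, FPKM and library total, ran from 742 bases for Psmg4 to 11856 bases for Adrm1, whose principal transcript in GENCODE M21 is 1535 bases. All exons of Adrm1 annotated there cover 4457 bases, fewer than the length behind its FPKM, so the FPKM span of the base is not a reliable measure. When counts were divided by the principal transcript instead, the base genes spanned 2.33-fold in the knockout and 2.16-fold in the wild-type library, and the alpha ring 8.91-fold and 6.09-fold. The gene with the highest level in the alpha ring was then Psma7 in both libraries, in place of Psma2. Order between genes therefore depends on the length used, and ratios between libraries do not. The lowest genes of these alpha ring and base spans, Psma3 and Adrm1, have near-identical copies, so the spans are uncertain on either scale. Gm9774, a copy of Adrm1, had 1062 counts in the knockout library and 745 in the wild-type library. The part of the copies in the spans was not tested. On either length scale, the assembly factors were the subcomplex with the lowest median level, 8.08 FPKM in the knockout library and 8.26 FPKM in the wild-type library, beside 40.5 and 26.8 FPKM for the subunits of core, base and lid.

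**Figure D4:**
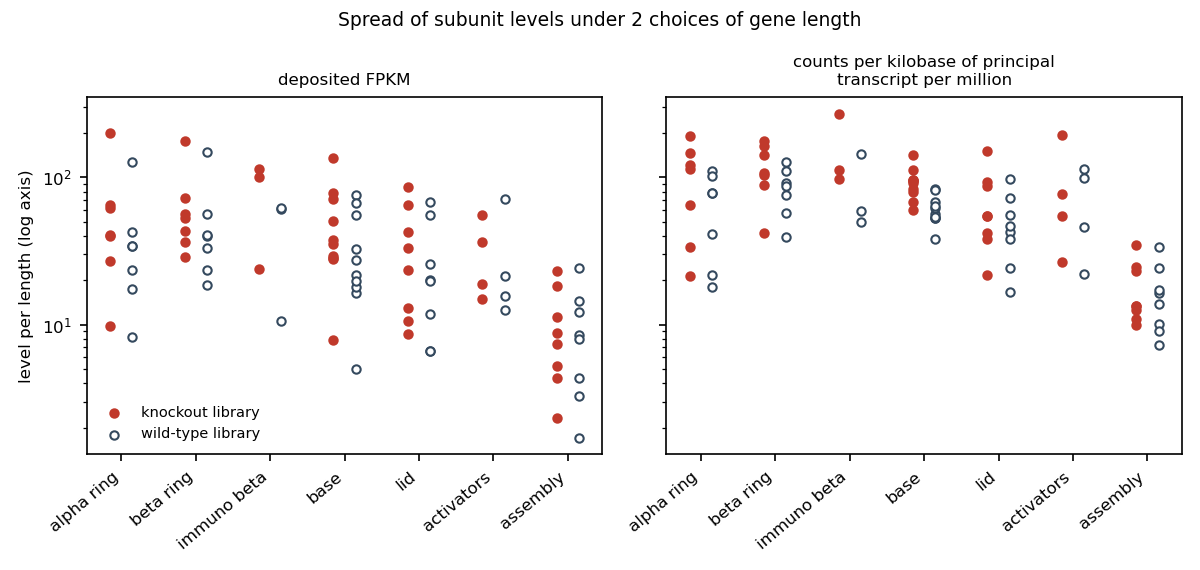
Level of each gene per length on a log axis, by subcomplex, in the knockout library (filled points, left) and the wild-type library (open points, right), by the deposited FPKM and by CPM per kilobase of the principal transcript. The base spans 17.4-fold in the knockout library on the first scale and 2.33-fold on the second. The assembly factors have the lowest median on both, though some of them lie above single genes of other subcomplexes.

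Genes that act on the proteasome without being part of it were closer to level. Of 19 measured regulators and accessory proteins, 2 were called higher and 0 lower, beside 9.58% of all tested genes called higher and 12.3% called lower. Their median log2 ratio was 0.07. Paaf1, a further name on this list, was not matched to a row. The 2 called higher were Nfe2l2, the gene of the antioxidant factor NRF2, at 62.0 CPM in the knockout and 31.2 CPM in the wild-type library, 1.99-fold higher (1.79 to 2.21), and Zfand2a, an arsenite-inducible partner of the proteasome, at 75.3 CPM in the knockout and 44.4 CPM in the wild-type library, 1.70-fold higher (1.55 to 1.86). Its relative Zfand5 was 1.55-fold higher (1.46 to 1.64). Nfe2l1, the gene of the proteasome transcription factor NRF1, was at 34.8 CPM in the knockout and 29.2 CPM in the wild-type library, 1.19-fold higher (1.05 to 1.35), while Ddi2, which encodes the protease that activates NRF1, was 1.10-fold lower (1.03 to 1.18). At the lower end were Uchl5, the deubiquitinase gene whose product docks on ADRM1, at 31.3 CPM in the knockout and 44.5 CPM in the wild-type library, 1.42-fold lower (1.27 to 1.60), and Akirin2, which encodes an import factor of the proteasome, 1.24-fold lower (1.12 to 1.37). Usp14, the gene of the other deubiquitinase bound to the particle, was 1.20-fold higher (1.10 to 1.32).

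Other gene lists differed between the libraries along with the proteasome. The genes of class I antigen processing, which use the peptides that the proteasome makes, were divided. The peptide transporter genes Tap2 (2.20-fold) and Tap1 (2.15-fold), the class I transcription activator gene Nlrc5 (2.11-fold), the loading factor gene Tapbp (2.05-fold) and the class I light chain gene B2m (1.61-fold) were the 5 of 9 called higher. The chaperone genes Canx, Calr and Pdia3 were 1.26-fold (1.21 to 1.32), 1.22-fold (1.18 to 1.26) and 1.17-fold (1.13 to 1.20) lower. Erap1, the gene of a peptide-trimming enzyme, was 1.12-fold higher (1.06 to 1.19). Of 12 interferon response genes, 10 were called higher and 0 lower, with a median log2 ratio of 1.39, and among them Irf1 was 2.62-fold higher (2.50 to 2.74). All 12 of 12 cell division genes were called lower, with a median of -1.66, Mki67 being at 344 CPM in the knockout and 1125 CPM in the wild-type library. Over all tested genes, 9.58% were called higher and 12.3% lower. The part of the interferon response and of cell division in the proteasome values was not tested.

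**Figure D5:**
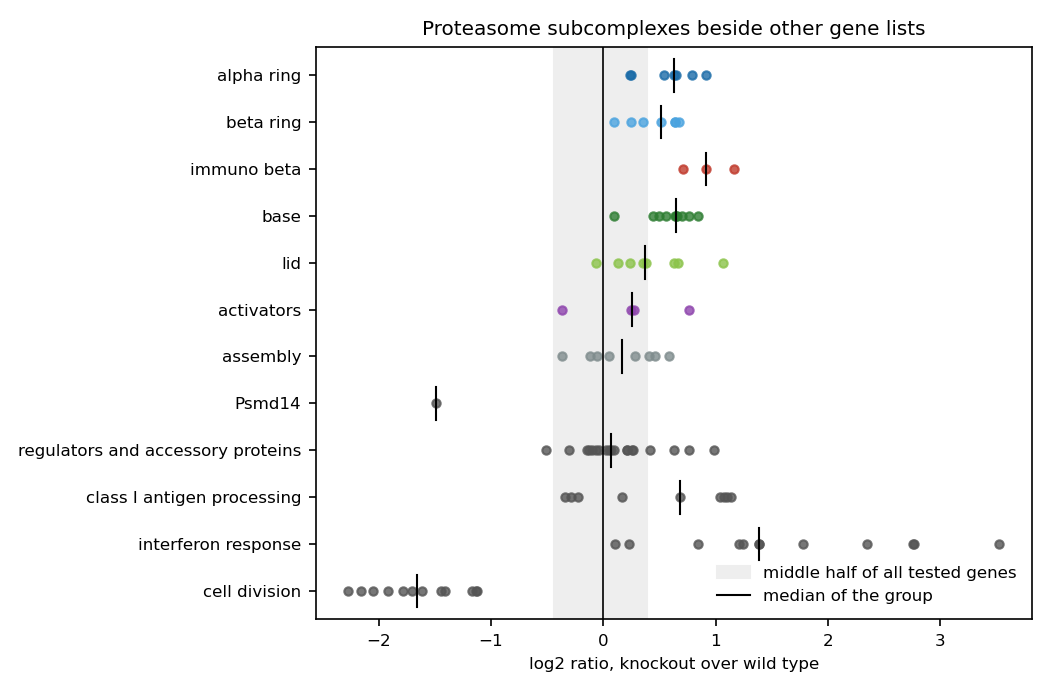
Log2 ratio of the knockout over the wild-type library for the genes of each proteasome subcomplex and of the other lists, 1 point per gene, with black ticks at the medians and a grey band over the quartiles of all tested genes. The interferon response has the highest median (1.39), cell division the lowest of the lists plotted (-1.66), and the regulators and accessory proteins (0.07) lie below the median of every subcomplex.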

How the data were processed

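RNA from sorted splenic Treg cells was made into libraries with an Illumina TruSeq RNA v2 kit, per the labels' protocols. That kit keeps no strand. The submitters' processing notes name TopHat, HTSeq and the mm10 build. Versions, annotation and the handling of multiply matching reads were not given in the sources used here. The deposited tables hold a whole-number read count and an FPKM value (fragments scaled to gene length and library total) for each gene name, per the file headers. The deposited counts were used for every ratio, and the deposited FPKM values only for levels between genes. There were 0 rows without a gene name.

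TMM scaling (edgeR 4.0.16, R 4.3.3) was applied to the counts and shifted all log2 ratios by 0.000781. No model was fitted. Intervals are exact conditional-binomial (Clopper-Pearson) at 95%, and ratios of ratios have the exact conditional interval of the odds ratio. They cover counting error only, and treat reads as independent. Amplified reads that carry no molecular identifier need not be independent, and the intervals are then too narrow. A prior of 0.5 counts, scaled by library size, entered each log2 ratio. Coordinates, exon overlap and principal transcripts come from GENCODE M21 (mm10), with Shfm1 matched as Sem1. Near-identical copies were sought with BLAST 2.17.0 among all annotated transcripts, at 95% identity or more over at least 200 bases. Python 3.11.15 with scipy 1.17.1, pandas 2.3.3, numpy 2.4.6 and matplotlib 3.10.9 did the rest. The interval and calling steps were tested on simulated counts drawn as independent reads, so that test does not cover amplified reads.

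The members and lists were chosen with earlier results of these data known. The text names all 47 members and Psmd14, and up to 3 genes at each end of the other lists. Tapbp, B2m, Erap1, Irf1, Mki67, Nfe2l1 and Usp14 were named outside that rule, for their role, after their values were seen. Alternatives tried were other scalings, filters, thresholds, priors and gene lengths, and leaving out or adding overlapping and copied genes. No library was left out, as there is 1 per genotype.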

Additional observations from a re-analysis of the deposited data

How the results depend on the processing

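With 1 library per genotype, differences between mice cannot be separated from genotype, and the depth limits the rarest members, Psmg3 and Psmg4, most. The 10 members called higher became 25 where the interval had to clear a 25% difference and 2 (Psmb9 and Psmd3) at a 2-fold threshold. There were 15 under upper-quartile scaling, 10 under the other scalings and filters, 9 without the 5 members that overlap another gene over 10% or more of their exons (Psmb5, Psmb7, Psmb8, Psmd9 and Psmd13), 11 with copies added, and 6 among the 27 members with no copy and no exon overlap. No setting called a member lower. The median over all members stayed between 0.49 and 0.55. In those 27 members the immunosubunit median was 0.71, from Psmb10 alone, the activator median was -0.0494, now below 0, and the assembly median -0.0052, likewise below 0, with fewer genes in each. The assembly median was 0.20 under upper-quartile scaling. Without length scaling, Psmb8 made up 92.1% of its pair in the knockout and 86.8% in the wild-type library, Psmb9 57.1% and 48.0%, and Psmb10 55.3% and 54.1%. Per base of the principal transcript, these were 86.6% and 78.5%, 44.0% and 35.3%, and 52.3% and 51.1%, again knockout first and wild type second. Adding copies, using only members free of them, and the principal transcript were settings chosen after seeing the data. No paired analysis was possible because each genotype has 1 library.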

Other observations

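Annotated near-identical copies, mostly processed pseudogenes, were found for 10 of the 47 members, and 7 of the 18 copies had a row in the tables. Gm9774, a protein-coding copy of Adrm1 with 99.8% identity over 1358 bases, had 1062 counts in the knockout library and 745 in the wild-type library, a ratio of 1.78 (1.62 to 1.95). With Gm9774 added, Adrm1 stood at 1.66 (1.56 to 1.76), which passed the 1.5-fold limit. Gm8394, a copy of Psma5, had 292 counts in the knockout library and 216 in the wild-type library. A730017L22Rik, a copy of Psmd11, had 175 counts in the knockout library and 299 in the wild-type library, a direction opposite to its parent, and with it added Psmd11 stood at 1.42 (1.33 to 1.52). How many of these reads came from the parent gene was not tested.

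The tissue-restricted paralogs were nearly absent. Psma8, the alpha subunit of spermatocytes, had 6 counts in the knockout library and 0 in the wild-type library. Psmb11, the catalytic subunit of the thymic cortex, had 2 counts in the knockout library and 0 in the wild-type library, below the 3 counts that a count of 0 allows.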
